A study of Mus musculus with 4 samples.

Results

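Mesodermal cells of the mouse pharyngeal apparatus and heart at embryonic day 9.5 (E9.5) were compared with those at E10.5 by single-cell RNA sequencing, with 1 library per stage. Cells entered the comparison if 1000 or more genes were detected in them and no more than 10% of their UMIs (unique molecular identifiers, 1 per captured transcript) fell in mitochondrially encoded genes. Of 4055 barcodes at E9.5, 4052 passed, and of 8070 barcodes at E10.5, 8042 passed, together 12094 of the 22625 cells retained in the 4 libraries of the series. Both libraries came from Swiss Webster embryos of genotype Mesp1Cre;Rosa26-GFPflox/+. In such embryos Cre is driven from the Mesp1 locus, which is active in early mesoderm that gives rise to heart, vessels, head muscle and connective tissue, and GFP remains on in every descendant of a recombined cell. GFP-positive, DAPI-negative cells, meaning labelled and alive, were sorted after trypsin digestion of the dissected region. Embryos were pooled for each library. The study lists another E9.5 library of this genotype, which is not part of this series. Within the series there were no replicate libraries. No test of stage was therefore possible, and the 95% intervals given here cover counting error only, not differences between embryos, dissections or library preparations. Stage and library cannot be told apart.

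Between these stages the heart tube loops and grows, its chambers enlarge, and progenitors of the second heart field are still being added at its poles. The same mesoderm, together with the neighbouring branchiomeric muscle progenitors of the pharyngeal arches, is called cardiopharyngeal mesoderm and depends on the T-box factor Tbx1. Primitive red cells, made in the yolk sac, circulate in the same period, and connective tissue and cartilage precursors begin to lay down matrix.

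The E9.5 library held 74900370 UMIs and the E10.5 library 142657064, with medians of 17408 and 15611 UMIs and 4036.5 and 3677 genes per cell. The numbers of barcodes in the files equal those the study lists as captured for both stages. The libraries shared 41 barcode sequences. Markers of lineages outside the mesoderm were low, with higher sums at E10.5. Over all low-haemoglobin cells (defined below by their globin content), the 8 neural crest genes summed to 5.51 and 15.9 UMIs per 1000000 (CPM), and the 12 genes of epithelium and endoderm to 4.04 and 9.66. None of these 20 genes reached a mean of 5 CPM. The 8 neural genes summed to 67 and 76.2, with Tubb3 and Nes, which mesoderm can also express, the 2 members past that mean. In the remaining cells, defined below, the neural crest genes summed to 5.66 and 17.5, and 1 of the 8 passed a mean of 5 CPM. It did so only through its level at E10.5. Both libraries held embryos of both sexes: after thinning to 5000 UMIs, Xist alone was seen in 20.8% and 26.2% of cells, a Y-linked RNA alone in 27.7% and 33.5%, and both together in 0.795% and 1.53%. Of 10 genes known to be induced by tissue dissociation that were measured, 0 were at least 2-fold higher and 0 lower, with a median log2 ratio of -0.14. The whole list of 17 genes summed to 5511 and 4000 CPM, a log2 ratio of -0.46. In the remaining cells, sarcomere range and endothelial range defined below, that of the sums was -0.48, -0.54 and -0.51.

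Cells were not clustered. They were assigned to ranges by the share of their UMIs in fixed genes, in the order given here, and a range is a cut on a score and not a cell type. A high-haemoglobin cell had at least 5% of its UMIs in haemoglobin genes. The sarcomere range held at least 2% in Tnnt2, Tnni1, Myl4, Myl7, Myh6, Myh7, Actc1 and Ttn, which encode contractile proteins of cardiac muscle. The endothelial range held at least 0.1% in Cdh5, Pecam1, Kdr, Cldn5, Esam, Emcn, Egfl7 and Ramp2, genes of vascular and endocardial lining. The macrophage range held at least 0.1% in Fcer1g, Tyrobp, C1qb, C1qc, Csf1r and Aif1. All others are called remaining cells.

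The high-haemoglobin range differed most between the libraries. At E9.5 it held 6 of 4052 cells, a share of 0.148% (exact binomial interval 0.0544% to 0.322%), and at E10.5 it held 1130 of 8042, a share of 14.1% (13.3% to 14.8%). In the E8.0 and E8.25 libraries, which came from another dissection, 69 of 7577 and 325 of 2954 cells passed the same limit. This share thus did not order the libraries by age, and E9.5 had the lowest of the series. The cause was not tested. The sarcomere range ran the other way, from 306 cells or 7.55% (6.76% to 8.41%) to 167 cells or 2.08% (1.78% to 2.41%). Without the high-haemoglobin cells in the total, these shares were 7.56% and 2.42%. The intervals of the endothelial range overlapped, at 6.0% (5.29% to 6.77%) and 5.61% (5.12% to 6.13%). Macrophage-range cells were few, 9 of 4052 (0.222%) against 82 of 8042 (1.02%). The remaining cells made up 86.1% and 77.2%. These shares depend on the limits: with the limits halved and doubled the sarcomere share was 9.53% and 4.71% at E9.5 and 2.6% and 1.07% at E10.5, the endothelial share 7.63% and 3.9%, and 6.86% and 3.89%, and the macrophage share 0.494% and 0.173%, and 1.17% and 0.821%. Near the cut of the sarcomere range, 115 cells of the earlier library and 81 of the later had 2% to 4% of UMIs in the defining genes, and 80 and 43 had 1% to 2%. Near that of the endothelial range, 86 and 140 cells had 0.1% to 0.2%, and 73 and 107 had 0.05% to 0.1%. Few cells lay near the haemoglobin cut, 2 and 9 between 5% and 10%, and 0 and 9 between 2.5% and 5%.

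**Figure D1:**
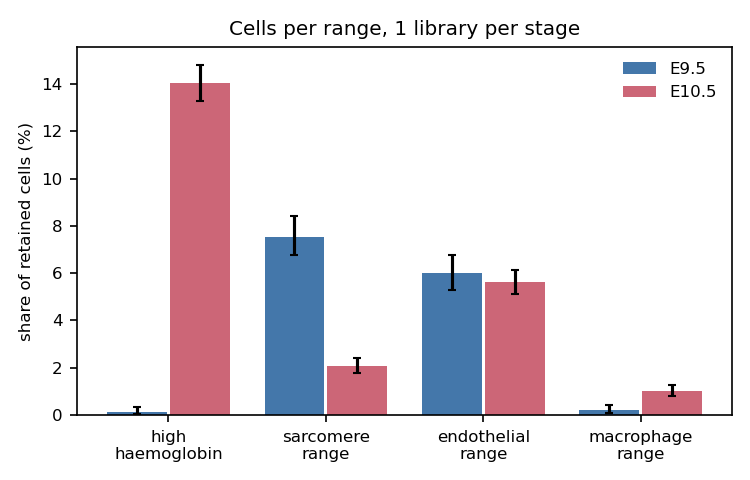
Share of retained cells (percent, y axis) in each of 4 ranges (x axis) at E9.5 (blue) and E10.5 (red), 1 library per stage; error bars are exact 95% binomial intervals for counting error only. The high-haemoglobin shares are 0.148% and 14.1%, the sarcomere share 7.55% and 2.08%, and the intervals of the endothelial range overlap.

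The globin genes set the scale of the first comparison, over all retained cells, in which each gene's UMIs were summed over a library and divided by the library's total to give CPM. Values in pairs are given for E9.5 first and E10.5 second, and a lone number after them in parentheses is the log2 ratio of E10.5 over E9.5. In such sums, fewer cells of a type and less RNA per cell cannot be told apart. Globins encode the oxygen-carrying chains of haemoglobin, and primitive red cells use embryonic chains (Hbb-bh1 and Hbb-y of the beta locus, Hba-x of the alpha locus) before the adult ones. Haemoglobin UMIs were 0.0339% of the E9.5 library and 10.3% of the E10.5 library. Hbb-y stood at 131 and 51883 CPM (log2 ratio 8.63, interval 8.60 to 8.65), Hbb-bh1 at 84.2 and 17328 (7.68), Hba-x at 81.9 and 17693 (7.76) and Hba-a1 at 38.2 and 14552 (8.58). The adult-type beta chains were at a far lower level but differed in the same direction, Hbb-bs at 1.43 and 388 and Hbb-bt at 0.334 and 56.9. Hba-a2 was counted at 2.0 and 670.3 and Hbq1b at 0.107 and 16.4. Hbb-bh2 and Hbq1a had no UMI at E9.5 and 66 and 82 UMIs at E10.5, at least 11.6-fold and 14.4-fold higher with a floor of 3 UMIs per library. Hba-a1 and Hba-a2, and likewise Hbb-bs and Hbb-bt, are near-identical copies whose reads the counting may have divided unevenly.

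The mix of chains also differed along the series. In the high-haemoglobin cells of E10.5, Hbb-y gave 50.4% of globin UMIs, Hba-x 17.3%, Hbb-bh1 17% and Hba-a1 14.3%. In the 6 cells at E9.5 the same chains gave 38.3%, 25.7%, 23.2% and 12%. In the E8.25 library, where cells past the same limit came from another dissection, Hbb-bh1 led with 37.7% and Hbb-y gave 9.83%, and at E8.0 the values were 49.2% and 2.98%. The share of Hbb-y was thus higher, and that of Hbb-bh1 lower, in each later library.

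The promoters of Hbb-y and Hba-x are shown because these chains gave the most globin UMIs at E10.5. Both are RefSeq sequences of build GRCm38.p6, from 250 bases before to 50 bases after the start of the gene, written along the gene's strand. Capitals mark the letters GATAA or their reverse complement, the core that GATA factors such as Gata1 recognise.
Hbb-y (chr7:103853158-103853457, minus strand): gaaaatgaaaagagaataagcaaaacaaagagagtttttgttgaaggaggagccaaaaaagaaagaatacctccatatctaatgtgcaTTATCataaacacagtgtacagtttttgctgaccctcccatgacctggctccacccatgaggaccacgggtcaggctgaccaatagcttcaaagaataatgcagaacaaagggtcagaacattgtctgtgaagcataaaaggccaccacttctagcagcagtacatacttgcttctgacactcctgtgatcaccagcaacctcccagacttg
Hba-x (chr11:32276350-32276649, plus strand): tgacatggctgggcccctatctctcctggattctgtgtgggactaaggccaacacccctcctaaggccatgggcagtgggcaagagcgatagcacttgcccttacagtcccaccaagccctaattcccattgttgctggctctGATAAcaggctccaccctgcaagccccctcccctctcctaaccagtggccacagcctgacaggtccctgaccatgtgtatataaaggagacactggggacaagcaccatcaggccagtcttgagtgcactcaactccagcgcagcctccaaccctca
GATAA was found on either strand in 7 of the 9 haemoglobin promoters listed (77.8%) and in 6976 of 27025 promoters of the same length (25.8%). A match is a description of these letters only and was not tested as a site.

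Besides globins, the 16 genes of the erythroid list (haem synthesis, membrane and regulatory genes of red cells) summed to 123 and 1592 CPM over all cells. A gene counts as measured at a mean of at least 5 CPM over both libraries, and higher or lower means a ratio of at least 2-fold. Of this list 10 genes were under 5 CPM at E9.5 and passed only through their level at E10.5, so no count of higher members is read from it. Over all 9295 genes measured in this comparison 254 (2.73%) were higher and 244 (2.63%) lower, and the median log2 ratio was -0.19. Among genes at a mean of 20 or more that are not globins, the highest ratios belonged to Mt2, a metallothionein that binds zinc and copper (0.761 and 391, log2 ratio 9.01, interval 8.63 to 9.41), and to red-cell genes. Hemgn, a nuclear protein of erythroid precursors, was at 0.254 and 117 (8.85), the anion exchanger Slc4a1 at 0.227 and 63.3 (8.12) and Alas2, the first enzyme of erythroid haem synthesis, at 0.961 and 178 (7.54). All 4 were close to 0 at E9.5, where 6 high-haemoglobin cells were found.

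The balance of higher and lower genes over all cells rested on the scaling. With library totals 51.0% of the 2-fold genes were higher. With TMM factors the share was 62.2% (304 higher, 185 lower), with median-of-ratios factors 60.9% (297 and 191), and with totals that leave out haemoglobin, mitochondrial and ribosomal protein genes 69.7% (348 and 151). The median log2 ratio of all genes was then -0.05, -0.08 and 0.04. Leaving out the high-haemoglobin cells brought the median to 0.00, and that comparison is used from here on.

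Without high-haemoglobin cells, 4046 cells with 74765298 UMIs and 6912 cells with 110433796 UMIs were compared. Of 9440 genes measured, 286 (3.03%) were higher at E10.5 and 153 (1.62%) lower. Each list count given below without high-haemoglobin cells is to be set beside these shares. A count of a few genes in a short list is not read as a result about the list. The genes furthest up were again globins, Hba-a1 at 1.02 and 614 CPM, Hba-a2 at 0.134 and 68, Hba-x at 2.05 and 818, Hbb-y at 12.3 and 2835 and Hbb-bh1 at 12.1 and 714. In the E10.5 library these were near one level in every range: Hbb-y was at 2833 CPM in remaining cells, 2852 in the sarcomere range, 2833 in the endothelial range and 2890 in the macrophage range, between 1.29% and 1.31% of its level in high-haemoglobin cells. The median haemoglobin share per low-haemoglobin cell was 0% at E9.5 and 0.500% at E10.5 (5th to 95th percentile 0.387% to 0.665%). In droplet data free RNA gives UMIs in cells that do not express a gene, and these globin values are not read as expression in the cells they were counted in. Of the erythroid list, 1 of 6 members measured here was higher.

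Leaving globins aside, the genes at a mean of 20 or more with the highest ratios were of several kinds. Upk3b, a uroplakin of mesothelium and epicardium, was at 7.66 and 46 (log2 ratio 2.59, interval 2.46 to 2.71). Foxf2, a forkhead factor of mesenchyme that responds to hedgehog signals, was at 8.21 and 37.6 (2.19), and Crym, a thyroid hormone-binding protein, at 7.72 and 36.1 (2.23). Bcl11a, a zinc finger repressor known for globin silencing, was at 9.3 and 64.8 (2.80). Of its UMIs outside high-haemoglobin cells, the remaining cells gave 93.2% at E9.5 and 97.2% at E10.5. Those cells held 64974668 of the 74765298 and 96957643 of the 110433796 UMIs compared. Mt1, the second metallothionein, was at 12 and 53 (2.14) and was much higher in the high-haemoglobin and macrophage-range cells of E10.5 (2831 and 364) than in remaining cells (45.4). That last level is 1.6% of the one in high-haemoglobin cells, near the percentages of the globins, and is likewise not read as expression in those cells. Gm10320, mt-Atp8, Nme2, Gm6576 and Rps26-ps1 complete the 15 highest and are described at the end with other genes that differ between whole libraries.

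At the lower end stood Tpm3-rs7 and Gm5611, also described at the end, and then genes of muscle, progenitors and position. Sfrp5, a secreted Wnt antagonist of early cardiac and foregut regions, was at 41.4 and 4.73 (log2 ratio -3.13, interval -3.27 to -3.00). The skeletal-type actin Acta1 was at 70.2 and 12.7 (-2.47), the atrial peptide Nppa at 54 and 12.8 (-2.08), the stretch-responsive cofactor Ankrd1 at 79.96 and 20.9 (-1.93) and the homeodomain protein Hopx at 34.1 and 10.3 (-1.74). The cardiac myosin light chains Myl2, Myl3 and Myl4 had log2 ratios of -1.73, -1.62 and -1.60. Lin28a, an RNA-binding protein of early developmental timing, was at 39.5 and 8.12 (-2.28), Prtg, a surface protein of early mesoderm and neural tissue, at 109 and 29.6 (-1.89), and Itm2a, a membrane protein of developing cartilage and muscle, at 162 and 34.6 (-2.23). Hoxb1 and Lhx2 are taken up with their groups.

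**Figure D2:**
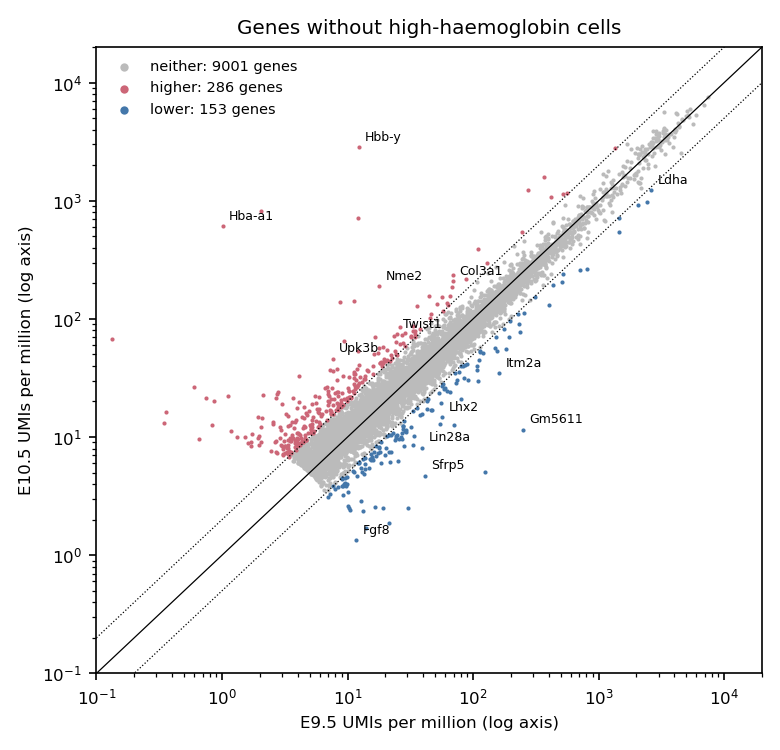
CPM at E9.5 (x axis) and E10.5 (y axis), both on log axes, for the 9440 genes measured without high-haemoglobin cells; each point is 1 gene, red points are at least 2-fold higher at E10.5 (286 genes), blue at least 2-fold lower (153), the solid line marks equality and the dotted lines a 2-fold difference. Globins lie far above the diagonal, and Tpm3-rs7 (unlabelled), Gm5611, Sfrp5 and Lin28a below it.

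**Figure D3:**
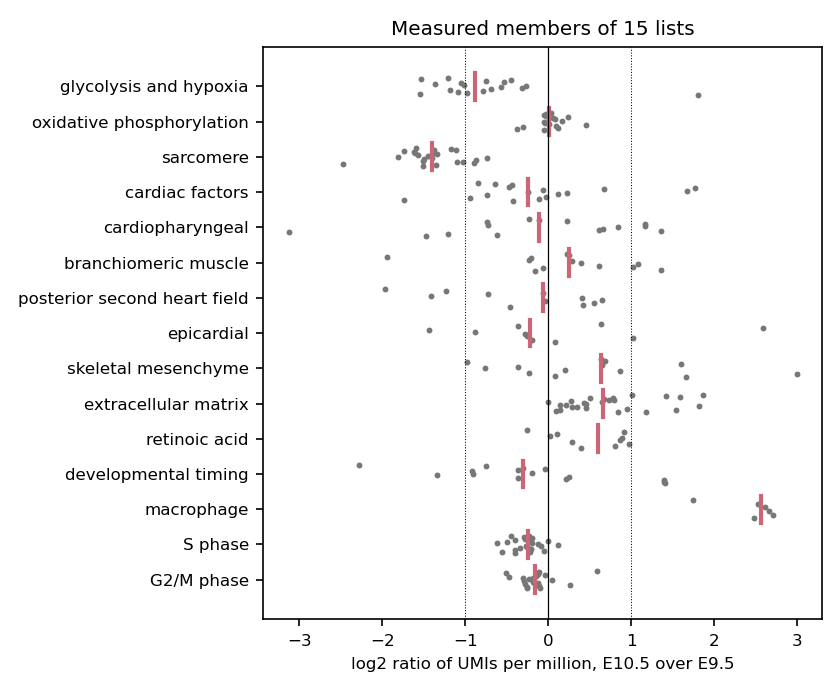
Log2 ratio of CPM, E10.5 over E9.5 (x axis), for the measured members of 15 gene lists (y axis) without high-haemoglobin cells; each grey point is 1 gene, each red bar the median of the list, and dotted lines mark a 2-fold difference. The sarcomere median is -1.41, that of glycolysis and hypoxia -0.88, that of extracellular matrix 0.66 and that of oxidative phosphorylation 0.01.

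Glycolysis genes, which encode glucose uptake and the steps from glucose to lactate, mostly had ratios under 1. Of 18 measured members of the glycolysis and hypoxia list 8 were at least 2-fold lower, 1 was higher, and 17 of 18 had a ratio under 1. The median log2 ratio was -0.88, beside 0.00 over all genes. Ldha, which makes lactate from pyruvate, was at 2627 and 1236 CPM (log2 ratio -1.09, interval -1.10 to -1.08), and Eno1, enolase, at 2071 and 912 (-1.18). The glucose transporters Slc2a1 and Slc2a3 were at 119 and 51.7 (-1.21) and at 21.6 and 7.45 (-1.53). Pfkl and Pfkp, which commit sugar to glycolysis, had log2 ratios of -1.05 and -1.37, and Aldoa, aldolase, one of -1.01. Bnip3, a mitochondrial protein induced by hypoxia, was the lowest of the list at 156 and 53.5 (-1.54). The exception was Vegfa, an angiogenic factor that hypoxia also induces, at 5.6 and 19.5 (1.80). Steps with smaller differences included Pgk1 (-0.32) and Gapdh (-0.27). Slc16a3, the lactate exporter, is no member of the list and was at 192 and 70.8 (-1.44). The 17 measured genes of oxidative phosphorylation, the respiratory chain that uses oxygen, held 0 higher and 0 lower, with a median of 0.01.

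Lower members were found in all 3 ranges compared. In remaining cells 7 of 17 measured members were lower (median -0.79), in the sarcomere range 4 of 18 (median -0.64) and in the endothelial range 6 of 18 (median -0.76). The share of all measured genes that were lower was 1.2% in remaining cells, 1.64% in the sarcomere range and 1.26% in the endothelial range. Bnip3 was at 146 and 53.3 in remaining cells, 317 and 133 in the sarcomere range and 91.7 and 27.6 in the endothelial range. Slc2a1 was 2.24-fold lower in remaining cells and 2.02-fold in the endothelial range, but 1.24-fold in the sarcomere range, where its level stayed highest at 359.6 CPM. Vegfa was higher in all 3, at 5.42 and 20.5, 9.62 and 32.1 and 3.63 and 8.79. In the endothelial range Vegfa was under 5 CPM at E9.5 and passed only through its level at E10.5. Across the 4 libraries in order of age, Ldha was at 2973, 3814, 2627 and 1236 CPM without high-haemoglobin cells and Bnip3 at 137, 227, 156 and 53.5, so the E10.5 level was the lowest of the series for both. The 2 earlier libraries came from a wider dissection and are set beside the others as values only.

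**Figure D4:**
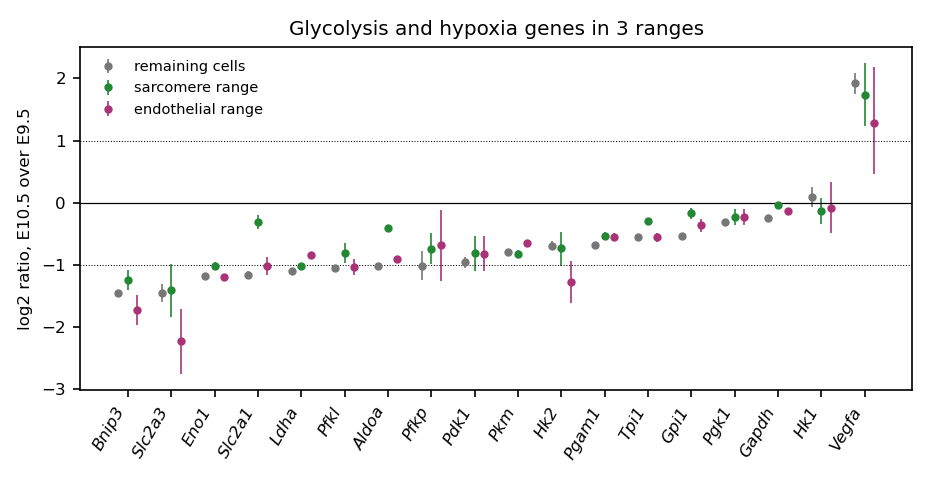
Log2 ratio of CPM, E10.5 over E9.5 (y axis), for the 18 glycolysis and hypoxia genes (x axis) in remaining cells (grey), the sarcomere range (green) and the endothelial range (purple); vertical bars are exact 95% intervals for counting error and dotted lines mark a 2-fold difference. Bnip3 and Slc2a3 lie at or below -1.25 in all 3 ranges and Vegfa above 1 in all 3. In the endothelial range Vegfa reached a mean of 5 CPM only through its level at E10.5.

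The promoters of the gene with the lowest ratio, of the most abundant lower gene and of the main glucose transporter are shown with the letters ACGTG, or their reverse complement, in capitals. ACGTG is the core that hypoxia-inducible factors recognise, and it is also part of the E-box CACGTG. All are RefSeq sequences of GRCm38.p6 over the same window, and for Ldha the first of 2 listed promoters is given.
Bnip3 (chr7:138909457-138909756, minus strand): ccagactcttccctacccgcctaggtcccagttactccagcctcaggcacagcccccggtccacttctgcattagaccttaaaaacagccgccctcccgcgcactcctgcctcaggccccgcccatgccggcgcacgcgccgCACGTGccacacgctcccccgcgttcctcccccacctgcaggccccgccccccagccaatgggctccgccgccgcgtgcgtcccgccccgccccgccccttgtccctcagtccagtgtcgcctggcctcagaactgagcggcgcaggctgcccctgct
Ldha (chr7:46845554-46845853, plus strand): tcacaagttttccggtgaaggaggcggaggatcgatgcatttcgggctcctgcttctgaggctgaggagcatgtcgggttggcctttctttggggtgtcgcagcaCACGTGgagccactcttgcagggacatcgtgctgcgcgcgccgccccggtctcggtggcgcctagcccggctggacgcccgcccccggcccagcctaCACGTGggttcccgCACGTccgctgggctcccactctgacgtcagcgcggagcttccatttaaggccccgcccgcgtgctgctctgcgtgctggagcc
Slc2a1 (chr4:119108495-119108794, plus strand): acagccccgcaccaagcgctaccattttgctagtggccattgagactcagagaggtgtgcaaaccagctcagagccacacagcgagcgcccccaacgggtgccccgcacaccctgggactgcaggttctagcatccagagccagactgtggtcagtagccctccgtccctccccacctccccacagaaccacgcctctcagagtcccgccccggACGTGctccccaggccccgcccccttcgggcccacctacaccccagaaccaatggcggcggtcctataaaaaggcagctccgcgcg
ACGTG was present in 7 of the 17 promoters listed for the group (41.2%), in none of the 9 haemoglobin promoters and in 5315 of 27025 promoters (19.7%). The first listed promoters of Eno1, Aldoa and Pfkl, which were also at least 2-fold lower, lacked these letters. Neither the windows without these letters nor those with them were tested for binding.

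Heart muscle genes were lower in the sums. All 23 sarcomere genes had a ratio under 1 and 20 were at least 2-fold lower, with a median log2 ratio of -1.41. Myl7, the light chain of atrial and early ventricular muscle, was at 1440.2 and 544 CPM (log2 ratio -1.41, interval -1.42 to -1.39), cardiac actin Actc1 at 714 and 261 (-1.45) and troponin T, Tnnt2, at 399 and 132 (-1.59). The giant spring protein Ttn was at 149.7 and 56.9 and the Z-disc protein Actn2 at 21.8 and 6.19. Tpm1, a tropomyosin also made outside muscle, was among the 3 that were not 2-fold lower (1121 and 672, -0.74). Both natriuretic peptides were lower, Nppa as given above and Nppb at 16.4 and 2.54 (-2.70). Of the 6 measured genes of calcium handling and conduction 1 was lower, the calcium release channel Ryr2 (11.2 and 5.02). The smooth muscle list held 2 lower genes of 7, Acta2 at 509.6 and 204 (-1.32) and Lmod1, an actin nucleator, at 9.84 and 4.55. The sarcomere range itself held 7.56% of low-haemoglobin cells in the earlier library and 2.42% in the later.

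Within the sarcomere range these differences were mostly smaller. The genes that define the range were given no result there. Cells entered it by their sarcomere RNA, so the cut also bears on the other sarcomere genes. The whole list, with the defining genes, summed to 67437 and 63662 CPM in the range. Smaller differences there are therefore not read as a result. Of the 15 other sarcomere genes 1 was 2-fold lower, Acta1 at 911 and 427 (-1.09), and the median was -0.07. The ventricular light chain Myl2 was at 2357 and 1935 (-0.28) and Nppa at 712 and 476 (-0.58). Nppb stayed lower at 221 and 88.8 (-1.32). In the remaining cells, which are capped below 2% in the defining genes, 5 of 16 measured members were lower (median -0.82). That cap bears on the defining members among them and can bear on the others.

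Over the sarcomere range 9205 genes were measured, of which 474 (5.15%) were higher and 151 (1.64%) lower, in 306 and 167 cells. With TMM factors the counts were 376 and 220, so the share of 2-fold genes that were higher was 63.1% in place of 75.8%, and the median moved from 0.05 to -0.06. With the limits of the range doubled, which left 191 and 86 cells, they were 567 and 288. After the globins, Gm10320 and mt-Atp8, the highest gene was Col1a2, a chain of type I collagen (5.92 and 77, log2 ratio 3.70, interval 3.16 to 4.28). Col1a2 was at 38.4 and 142 in remaining cells, so its level in the sarcomere range at E10.5 was between the 2 values of those cells. Tbx20, a T-box factor needed for chamber growth, was at 98.6 and 476 (log2 ratio 2.27, interval 2.13 to 2.42), and Gja5, the gap junction protein of atria and trabeculae, at 8.88 and 49.8 (2.49). Isl1, the LIM factor of second heart field cells, was at 33.7 and 80.1 (1.25) and Nkx2-5, a core cardiac factor, at 415 and 445 (0.10).

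At the lower end of this range, after Tpm3-rs7 and Gm5611, stood Mhrt, a long noncoding RNA from the Myh7 locus, at 101 and 4.53 CPM (log2 ratio -4.47, interval -5.39 to -3.69). Mhrt overlaps Myh7 in antisense, so reads near their shared stretch cannot be assigned with certainty. Tdgf1, the Nodal co-receptor known from the outflow tract, was at 40.3 and 3.83 (-3.40), and Cck, the peptide hormone cholecystokinin, at 262 and 44.6 (-2.55). Itm2a (338 and 81.2), the mitochondrial protein Mgarp (33.9 and 10.1) and the keratin Krt19 (86.6 and 26.1) complete the 8 lowest. Of the proliferation genes, 4 of 24 S-phase members (median -0.65) and 2 of 22 G2 and mitosis members (median -0.69) were at least 2-fold lower. Over all low-haemoglobin cells, 0 of 24 and 0 of 22 were, with medians of -0.25 and -0.16. The difference between ranges was not tested.

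Of 17 cardiac transcription factors measured, 2 were higher, 1 lower, and the median was -0.24. The higher ones were T-box factors, Tbx20 at 17.9 and 56.9 (log2 ratio 1.67, interval 1.58 to 1.75) and Tbx2, a repressor of chamber genes in non-chamber muscle, at 4.69 and 15.9 (1.76). Tbx2 was under 5 CPM at E9.5 and was measured only through its level at E10.5. The lower one was Hopx. Nkx2-5 was at 49.6 and 27.6 (-0.85), Mef2c at 99.4 and 59.8 (-0.73) and Gata4 at 33.7 and 21.6 (-0.65), below the 2-fold limit, while Hand2 was at 35.7 and 41.8 (0.23). Tbx20 was higher in remaining cells (9.48 and 39.1) and in the endothelial range (46.2 and 133) as well as in the sarcomere range. The sarcomere range gave 39.8% of the Tbx20 UMIs of the earlier library outside high-haemoglobin cells and 21.7% of those of the later.

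Of 15 measured genes of the cardiopharyngeal mesoderm 3 were higher and 3 lower, and the median was -0.11. The transcription factors Tbx1, Isl1 and Tcf21 differed by less than 2-fold. Tbx1 was at 76.6 and 65.3 CPM (log2 ratio -0.23, interval -0.28 to -0.18), Isl1 at 77.7 and 71.9 (-0.11) and Tcf21, a factor of head muscle and epicardial progenitors, at 68.5 and 80.3 (0.23). The 3 lower genes encode secreted factors: Fgf8, needed for outflow tract and arch growth, at 11.7 and 1.34 (log2 ratio -3.12, interval -3.39 to -2.87), Fgf10, a classical second heart field marker, at 15.7 and 6.83 (-1.20), and Nrg1, the neuregulin that signals to ErbB receptors on heart muscle, at 13.5 and 4.87 (-1.47). The higher ones were Wnt5a, a secreted noncanonical Wnt ligand (32 and 71.9), the forkhead factor Foxc1 (12.9 and 29.1) and the phosphatase and co-activator Eya1 (14.2 and 36.6).

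Shares of cells with a UMI were taken after thinning. Each cell was thinned to 5000 UMIs, which left out 23 cells of the E9.5 library and none of the other, and the low-haemoglobin cells left were 4023 and 6912. The high-haemoglobin cells of E10.5, which should lack these genes, gave the background, with a median of 28547.5 UMIs before thinning, against 17405 and 14738 in the cells compared. A median of 45.6% of their UMIs were haemoglobin, so at equal depth they can show less free RNA than other cells. No background was measured for E9.5. Tbx1 was seen in 22.7% and 23% of cells, with a background of 2.39%, and without thinning in 39% and 41.5%, with a background of 11.9%. Isl1 was seen in 23.6% and 20.8% (background 2.74%). Fgf8 was seen in 4.52% and 0.579%, with 0 of 1130 background cells, which allows a share of up to 0.265%. Nrg1 was seen in 5.82% and 2.29% (background 0.442%), and Sema3c, a guidance cue of the outflow tract, in 7.93% and 10.3% (background 0.885%). Without thinning the shares and their background were 40.4%, 32.3% and 7.35% for Isl1, 10.45%, 1.48% and 0.531% for Fgf8, 13.6%, 5.54% and 1.24% for Nrg1 and 21.6%, 21.9% and 5.49% for Sema3c.

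Aplnr, the apelin receptor, lay on opposite sides of 1 in remaining cells and in the endothelial range, a difference that was not tested. Without high-haemoglobin cells it was at 15.1 and 9.81 CPM (log2 ratio -0.62, interval -0.74 to -0.50). In remaining cells it was at 12.4 and 1.33 (log2 ratio -3.22, interval -3.50 to -2.95), 9.32-fold lower. In the endothelial range, where the receptor is known from venous and angiogenic cells, it was at 76.2 and 114 (log2 ratio 0.58, interval 0.40 to 0.77). Outside high-haemoglobin cells, the endothelial range thus gave 315 of 1128 Aplnr UMIs at E9.5 (27.9%) and 948 of 1083 at E10.5 (87.5%). Nrg1 was lower in both, at 13.3 and 4.17 in remaining cells and 32.9 and 15.6 in the endothelial range. Tbx1 was at 86.6 and 70.4 (-0.30) in remaining cells and at 21.3 and 42.1 (log2 ratio 0.98, interval 0.64 to 1.34) in the endothelial range, just under 2-fold higher. Sema3c was at 19.5 and 25 in remaining cells and 38.3 and 52.6 in the sarcomere range.

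**Figure D5:**
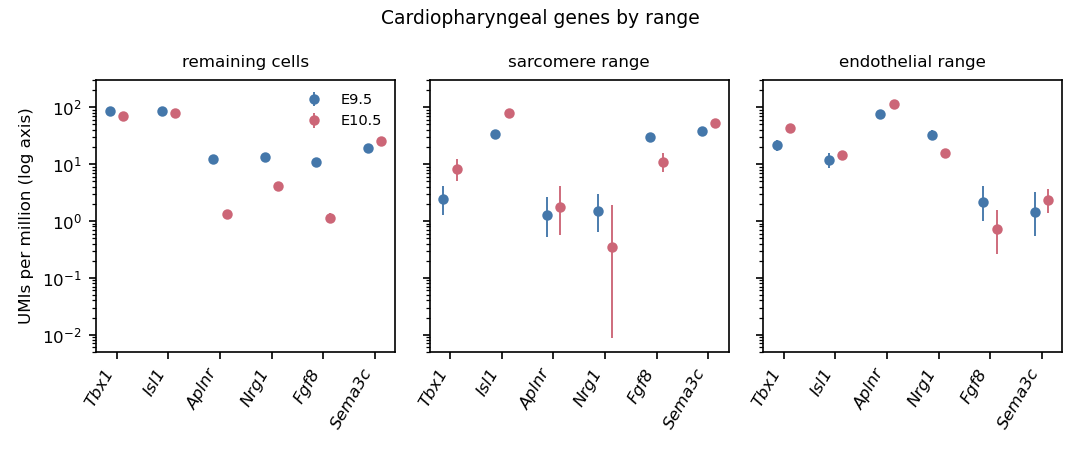
CPM (y axis, log scale) of 6 cardiopharyngeal genes (x axis) at E9.5 (blue) and E10.5 (red) in remaining cells, the sarcomere range and the endothelial range; bars are exact 95% Poisson intervals for counting error. Aplnr is 12.4 and 1.33 in remaining cells but 76.2 and 114 in the endothelial range, and Tbx1 and Isl1 differ little in remaining cells.

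Branchiomeric muscle, the muscle of jaw, face and neck, is specified by Tbx1, Tcf21, Msc and Lhx2 before the myogenic factors Myf5, Myod1 and Myog act. Of the 13 measured genes of this list 3 were higher and 1 lower (median 0.25). The lower one was the LIM factor Lhx2, at 56.6 and 14.7 CPM (log2 ratio -1.95, interval -2.03 to -1.86) and seen in 14.2% and 4.5% of thinned cells (background 0.619%, and unthinned 23.4% and 7.67% with a background of 2.21%). The higher ones were Ebf3 (10.3 and 21.8), Six2 (8.39 and 17) and Eya1, regulators of mesenchyme and early muscle. Msc, at 19.1 and 22.8 (0.25), differed by less than 2-fold. The later myogenic genes were rare and under the mean of 5, so they do not enter the counts. Myog, which drives differentiation, had 2 UMIs at E9.5 (0.0268 CPM) and 5.03 at E10.5, with an interval of 5.69 to 10.60 for the log2 ratio. It was seen in 0 of 4023 thinned cells at E9.5, which allows a share of up to 0.0746%, and in 75 of 6912 at E10.5 (1.09%), against 0.0247% and 2.37% without thinning, with a background of 0.442%. Myod1 was at 0.321 and 3.65 (log2 ratio 3.51, interval 2.91 to 4.17), Pax3, of migrating muscle precursors, at 1.73 and 6.39 (1.89), and Myf5, the earliest of the family, at 6.06 and 7.94 (0.39). Of the 3 measured members of the myogenic list 0 were higher and 0 lower.

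The posterior second heart field adds cells to the inflow pole and is marked by Hoxb1 and Tbx5. Of 11 measured members 3 were lower and 0 higher, with a median of -0.07. The lower ones included Hoxb1 at 33.5 and 8.6 (log2 ratio -1.96, interval -2.07 to -1.85) and Wnt2, a ligand of cardiopulmonary progenitors, at 107 and 40.3 (-1.41). Tbx5 was at 35.5 and 33.9 (-0.07). Among the 13 Hox genes measured, 2 were lower, Hoxb1 among them, and the median was 0.24. Hoxa4 was the 1 higher one (4.11 and 10.7, 1.38), but it was under 5 CPM at E9.5 and passed only through E10.5. Over all genes 3.03% were higher and 1.62% lower. Hoxb4, the most abundant Hox gene at E10.5, was at 79 and 93.3 (0.24).

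Signalling genes were described by pathway, beside 3.03% higher and 1.62% lower over all genes. In the Wnt list 3 of 15 were higher (Wnt5a, the agonist Rspo3 at 16.1 and 34.3 and the antagonist Sfrp2 at 26.1 and 61.2) and 3 lower (Wnt2, Sfrp5 and the nuclear effector Lef1 at 57.2 and 28.1), while the target gene Axin2 was at 12 and 12.3 (0.04). In the FGF list 2 of 9, Fgf8 and Fgf10, were lower and 0 higher, and the response gene Spry2 was at 35 and 21.4 (-0.71). BMP genes held 0 higher and 0 lower of 10 (median -0.30), with Bmp4 at 90.3 and 71.4 and Id2, a target, at 684 and 515. Hedgehog genes held 2 higher of 11 (median 0.17), Foxf2 and the co-receptor Boc (3.1 and 9.25), and the paralogue Foxf1 was at 102 and 61.9 (-0.72). Boc was under 5 CPM at E9.5 and passed only through its level at E10.5.

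Retinoic acid genes lay above 1 in 9 of 10 cases without any reaching 2-fold (median 0.60), and the synthesising enzyme Aldh1a2 was at 41.5 and 34.7 (-0.26). Of these 10, 1 was under 5 CPM at E9.5 and passed only through its level at E10.5, which fixed its ratio above 1. All 10 measured chemokine and guidance genes had a ratio above 1. Of these 1 was 2-fold higher, Sema3f (3.42 and 7.55), beside 3.03% of all genes. Sema3f was under 5 CPM at E9.5 and passed only through its level at E10.5. Cxcl12, a chemokine of mesenchyme, was at 51.8 and 89 (0.78) and seen in 18.7% and 28.2% of thinned cells (background 3.45%, and unthinned 36.6% and 47.4% with a background of 15%). Notch genes had a median of 0.50 with 0 of 7 2-fold higher. That median includes 1 gene that was under 5 CPM at E9.5 and passed only through its level at E10.5. In the PDGF list Pdgfc, a ligand of mesenchyme, was higher at 24.7 and 49.5, 1 of 4 measured, beside 3.03% of all genes.

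Of 26 measured extracellular matrix genes 7 were at least 2-fold higher and 0 lower, 25 had a ratio above 1, and the median was 0.66. Of the 26, 2 were under 5 CPM at E9.5 and passed only through their level at E10.5, which fixed their ratios above 1. They enter the 25 and the median but are not among the 7. Over all genes 3.03% were higher and 1.62% lower. The fibrillar collagens led, Col3a1 at 69.8 and 209 CPM (log2 ratio 1.58, interval 1.54 to 1.63), Col1a2 at 35.5 and 129 (1.86), Col1a1 at 34.6 and 69.7 (1.01) and the cartilage collagen Col2a1 at 27.2 and 72.6 (1.42). Decorin, Dcn, which binds collagen fibrils, was at 6.98 and 24.6, Fbln2, of developing vessel walls and valves, at 6.94 and 20.2, and Nid1, of basement membranes, at 12.1 and 27.5. Fibronectin, Fn1, which early mesoderm already makes, was at 154 and 187 (0.28). Elastic fibre genes were under the mean of 5 but differed in the same direction, elastin (Eln) at 1.1 and 5.65 and Fbln5 at 1.24 and 6.05.

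Of 13 measured genes of skeletal and cranial mesenchyme 3 were higher (median 0.64): Foxd1, of stromal and cranial mesenchyme, at 4.13 and 32.9 (2.99), Twist1, a mesenchymal basic helix-loop-helix factor, at 24.7 and 74.7 (1.59), and Meox2, of somites and limb and arch mesenchyme, at 3.75 and 11.9 (1.66). Foxd1 and Meox2 were under 5 CPM at E9.5 and passed only through their level at E10.5, so the count of higher members is not read. Prrx2 was at 284 and 144 (-0.98) and its paralogue Prrx1 at 73.4 and 118 (0.68), so the pair lay on opposite sides of 1. Pax1, of sclerotome, had no UMI in the earlier library and 4.57 CPM in the later, at least 114-fold higher with a floor of 3 UMIs. Runx2, of bone-forming cells, was at 0.334 and 2.96 and Dlx5, of arch mesenchyme, at 0.709 and 5.18.

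Epicardial genes are those of the outer heart layer that spreads over the surface in this period. Of 10 measured, 2 were higher and 1 lower (median -0.22), beside 3.03% and 1.62% of all genes. The higher ones were Upk3b and Lrrn4, a membrane protein of mesothelium, at 5.32 and 10.8. Upk1b and Krt7, under the mean of 5, were at 0.869 and 8.91 and 0.401 and 7.85. The lower one was Krt8, a simple keratin also made by early muscle, at 65.5 and 24.1 (-1.44). Wt1 was at 13.4 and 20.8 (0.63) and Tbx18 at 43.5 and 33.7 (-0.37).

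Among regulators of developmental timing, Lin28a was seen in 17.5% and 4.02% of thinned cells (background 0.265%, and unthinned 46.1% and 10.9% with a background of 2.74%), and Sall4, a zinc finger factor of early progenitors, was at 29.1 and 11.5 (-1.34). The nuclear factors Nfia, Nfib and Nfic were higher, at 11.7 and 30.7, 28.6 and 75.3 and 7.04 and 18.6, with log2 ratios of 1.39, 1.39 and 1.40. In all, 3 of 15 measured were higher and 2 lower (median -0.30). Across the 4 libraries in order of age, Lin28a was at 126, 128, 39.5 and 8.12 and Nfib at 2.18, 2.19, 28.6 and 75.3 CPM without high-haemoglobin cells. Lin28a was lower at E10.5 in all 3 ranges compared, at 42.5 and 9.11 in remaining cells, 26.3 and 1.74 in the sarcomere range and 12.1 and 0.722 in the endothelial range. The E10.5 values of the last 2 ranges rest on 5 and 6 UMIs, against 142 and 50 UMIs at E9.5. Nfib was at 26.1 and 76.3, 32.2 and 59.2 and 65.3 and 88.8 in the same ranges.

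Imprinted genes, expressed from 1 parental copy and many of them tied to growth, held 3 lower and 0 higher of 20 (median -0.16). The lower ones were Dlk1, a growth regulator, at 520.4 and 238 (-1.13), the splicing protein gene Snrpn at 86.4 and 41.1 (-1.07) and Phlda2 at 18.6 and 5.98 (-1.64). Igf2, the growth factor, was at 131 and 242 (0.89), H19 at 717 and 726 (0.02) and the cell cycle inhibitor Cdkn1c at 755 and 1046 (0.47). Of the 4 cell cycle inhibitors measured, 0 were higher and 0 lower.

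Of 20 measured endothelial genes 1 was at least 2-fold higher in the sum, beside 3.03% of all genes, and 17 had a ratio above 1, with a median of 0.50. Within the endothelial range, over the 14 measured members that do not define it, the median was 0.06. That range was cut on endothelial genes, which bears on these members too, so the smaller median is not read as a result. The 2-fold gene was Sox18, an endothelial factor of vessels and lymphatics (1.95 and 9.9, log2 ratio 2.34, interval 2.09 to 2.60). In this sum 2 of the 20 genes, Sox18 among them, were under 5 CPM at E9.5 and passed only through their level at E10.5. Their ratios above 1 were thus fixed by the filter, and both enter the 17 and the median of 0.50. The endothelial range held 6.01% and 6.52% of low-haemoglobin cells. Of 9160 genes measured within it, 205 (2.24%) were higher and 115 (1.26%) lower. The 8 highest were globins, mt-Atp8, Gm10320 and Nme2, and Sox18 stood at 32.2 and 122 (1.92). Among the lowest were Itm2a (239.6 and 35.7), Pf4, a chemokine of platelets and their precursors (79.6 and 16.7, -2.25), Slc16a3 (209 and 57.5), Prtg (69.5 and 20.3), Bnip3 and the small GTPase Rnd2 (83.7 and 25.6). Etv2, the factor that starts endothelial and blood fate, was at 203 and 107 (log2 ratio -0.92, interval -1.06 to -0.78) and Hopx at 80.8 and 30.7 (-1.40). Of the 4 measured genes of endocardium and flow response in the sum 0 were higher and 0 lower.

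The 12 macrophage genes summed to 21.9 and 114 CPM. Only 6 were measured, 5 of them under 5 CPM at E9.5, so no count of higher members is read from the list. Its values include the complement chain C1qb at 2.98 and 18.9 and the signalling adaptor Tyrobp at 3.7 and 21.3. Megakaryocyte genes held 1 higher of 5, beside 3.03% of all genes. It was the integrin Itgb3 (2.96 and 11.5), which other cells also express. Itgb3 was under 5 CPM at E9.5, so that count is not read either. Pf4 was at 131 and 136 (0.06).

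In the remaining cells 9305 genes were measured, of which 287 (3.08%) were higher and 112 (1.2%) lower. The 8 highest were the 5 globins, Gm10320, mt-Atp8 and Nme2. The 8 lowest were Tpm3-rs7, Gm5611, Sfrp5 (44.3 and 4.8), Myl4, Lin28a, Itm2a (143 and 33.9), Hoxb1 (38.4 and 9.76) and Lhx2 (64.7 and 16.6). Myl4 helps to define the sarcomere range, and its level here is capped by that cut. The matrix list held 6 higher of 26 (median 0.70) and the cardiopharyngeal list 4 higher and 4 lower of 15. Of the 26 matrix genes, 2 were under 5 CPM at E9.5 and passed only through their level at E10.5.

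Some of the largest ratios belonged to genes that differed in the same direction in all 3 ranges. Tpm3-rs7, a tropomyosin pseudogene, was at 124 and 4.8 CPM in remaining cells, 62.9 and 1.39 in the sarcomere range and 198 and 7.94 in the endothelial range, and the pseudogene Gm5611 at 258 and 11.9, 157 and 4.88 and 212 and 9.63. In the opposite direction, Gm10320 was at 8.97 and 139.7, 2.59 and 60.3 and 11.6 and 163, the mitochondrial gene mt-Atp8 at 11.4 and 139, 12.8 and 185 and 8.71 and 149, and the nucleotide kinase Nme2 at 18.1 and 186, 13.9 and 159 and 20.1 and 235. These genes did not order the libraries by age. Without high-haemoglobin cells the values in the 4 libraries, youngest first, were 167, 8.79, 248 and 11.6 for Gm5611, 188, 114, 17.9 and 189 for Nme2, 83.6, 28.6, 11.3 and 141 for mt-Atp8 and 1010.2, 340.3, 275 and 1231 for Rps26-ps1, a ribosomal protein pseudogene. Nme2, mt-Atp8 and Rps26-ps1 were thus lower in the 2 middle libraries than in the first and last, and Gm5611 was low at E8.25 and E10.5. Pseudogenes share reads with near-identical copies, mt-Atp8 overlaps its neighbour, and such counts are uncertain. What makes these genes differ between libraries was not tested.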

How the data were processed

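Per the labels, cells were captured with the Chromium Single Cell 3′ kit v2, and the submitters' processing notes name Cell Ranger 3.1.0 and build mm10. The authors deposited raw UMI counts of 27998 genes per barcode, with no normalization. Counts were summed over the cells of a range and divided by their total to give UMIs per 1000000 (CPM). A gene counted as measured at a mean of at least 5 CPM over both libraries. Intervals were exact 95% Poisson (levels), conditional binomial (ratios) and Clopper-Pearson (shares), for counting error only. A count of 0 was set to a floor of 3 UMIs for folds, and the upper limit given for a share of 0 cells is 3 cells of the total. Doublets were kept. Scrublet (scanpy 1.11.5), at its own threshold, marked 1 cell at E9.5 (0.0247%) and 92 at E10.5 (1.14%), so the alternative removed the highest scores at 0.8% per 1000 cells. edgeR 4.0.16 gave TMM factors only. The scripts (Python 3.11.15, numpy 2.4.6, scipy 1.17.1, pandas 2.3.3) were tested on simulated data. The members, the 39 gene lists and the rule for naming genes (the 15 highest and lowest ratios without high-haemoglobin cells at a mean of at least 20 CPM, 5 of each over all cells, 8 of each per range, globins and list members) were chosen with earlier results of these data known. 2 listed genes had no row in the files. The values of some genes that the rule names are not reported here.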

Additional observations from a re-analysis of the deposited data

Results flagged for a closer look

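Among the named and listed genes, 6 differed at least 2-fold in opposite directions in 2 ranges of the same libraries. None of these differences was tested, since there was 1 library per stage. Actc1, cardiac actin, had a log2 ratio of 1.10 in the endothelial range (20.1 and 43 CPM) and -1.27 in remaining cells (92.8 and 38.4), and it helps to define the sarcomere range, so that cells rich in it are missing from both. Dlk1 was at 1.19 in the sarcomere range (81.6 and 186) and -1.21 in remaining cells (586 and 254). Phlda2, imprinted like Dlk1, was at 1.03 in the sarcomere range (15.4 and 31.4) and -1.89 in remaining cells (19.6 and 5.3). Mpped2, a metallophosphoesterase, was at 1.00 in remaining cells (67.2 and 135) and -1.23 in the sarcomere range (252 and 108). Msx1, a homeodomain factor of arch mesenchyme and cushions, was at 1.11 in the sarcomere range (3.89 and 8.36) and -1.07 in the endothelial range (90.8 and 43.2). Pf4 was at 2.25 in the sarcomere range (3.15 and 15) and -2.25 in the endothelial range (79.6 and 16.7). In the sarcomere range Msx1 and Pf4 were under 5 CPM at E9.5 and passed only through E10.5. That range held 306 and 167 cells, so such low levels rest on few UMIs. Mpped2 in remaining cells and Phlda2 in the sarcomere range lay at or near the 2-fold limit.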

How the results depend on the processing

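No paired analysis was possible because each stage is 1 library, and for the same reason no library could be left out. The depth limits shares and ratios of rare genes and small ranges most, and the intervals do not cover variation between embryos. Of the log2 ratios of cell shares between the stages, 13 alternative values stayed within counting error and 1 moved: with the range limits doubled the log2 ratio of the sarcomere share was -2.14 in place of -1.86. The shares themselves moved with the limits, as given above. Of counts of genes, 54 stayed within 1.5 times and 20 moved. Over all cells the moved counts, higher then lower, were 2014 and 1287 with no filter on low values, 53 and 61 at a mean of 50, and 474 and 913 at 1.5-fold, and the lower count was 151 with totals that leave out haemoglobin, mitochondrial and ribosomal protein genes. Without high-haemoglobin cells they were 2571 and 964, 40 and 44, and 765 and 397 under the first 3 settings, and in remaining cells 2482 and 871, 43 and 28, and 758 and 366. In the sarcomere range the lower count was 288 with limits doubled. The no-filter and 1.5-fold settings admit more genes by construction, and a mean of 50 admits fewer. For the others the cause was not tested. Of 1052 alternative values of list medians, 905 lay within 0.1 of the reported one. 32 had the other sign, and 24 of these started from a median within 0.1 of 0. Over all cells, with the same reduced totals, the medians of megakaryocyte, hedgehog and cell cycle inhibitor genes were 0.0880, 0.0922 and 0.0801 in place of -0.15, -0.14 and -0.16, and those of branchiomeric muscle, Hox and oxidative phosphorylation genes 0.152, 0.138 and 0.171 in place of -0.0830, -0.0972 and -0.0639. These last 3 were also above 0 with TMM and median-of-ratios factors. With each cell weighing the same, hedgehog was 0.0770, endothelial -0.0135 (0.10 in the report's setting) and, in remaining cells, epicardial -0.0201 (0.19). In remaining cells the megakaryocyte median was 0.310 with limits halved and 0.468 with limits doubled, in place of -0.43. For the genes at the ends of each ranking, 562 alternative ratios stayed and 130 moved. None changed sign or left its side of 2-fold, but these genes lie well past that limit by selection. Single list members were not checked. Without high-haemoglobin cells, 254 genes were higher and 173 lower with TMM factors, in place of 286 and 153. List members near 2-fold can thus cross the limit. Removing 132 and 521 likely doublets moved no count by over 1.5 times over all cells, without high-haemoglobin cells or in remaining cells.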
